A study of Mus musculus with 126 samples.

Results

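A group of 10 genes around the EGF and FGF receptors was followed in single cells of the mouse endolymphatic sac: the inducible feedback inhibitors Errfi1, Dusp6, Spry1, Spry2 and Spry4, the EGF receptor family members Egfr, Erbb2 and Erbb3, and the FGF receptors Fgfr1 and Fgfr2. They were taken by symbol and are 10 of the 48490 gene identifiers measured. The members were chosen by measured values of these same cells, namely the genotype contrast in epithelial cells, in which Errfi1 stood near the top. The genotype differences of the members are therefore a description and support nothing by themselves.

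Receptor tyrosine kinases of the EGF and FGF families bind secreted growth factors and switch on the Ras to ERK kinase cascade. The cascade in turn induces its own brakes. Errfi1 encodes an adaptor that binds and blocks the kinase domains of EGF receptor family members, Dusp6 a phosphatase that removes activating phosphates from ERK, and the Spry genes inhibitors that act between the receptors and ERK. FGF signalling is best known in the inner ear for inducing and shaping the otic epithelium, from which the endolymphatic sac grows. The sac is a blind epithelial pouch that helps to regulate the fluid of the inner ear.

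The study measured 126 single cells from the endolymphatic sac at E14.5, an embryonic age in days, by Smart-seq2, a plate-based method that copies whole transcripts and uses no molecular identifiers. By label, 33 cells were wild type and 93 were Sox9 Y440X/+, heterozygous for an allele of the transcription factor gene Sox9 written as a premature stop. The labels give no sex, strain or treatment and name no animal, so each genotype is 1 sample of many cells and no test was made. Standard deviations describe the spread over cells, and intervals on shares of cells are exact Clopper-Pearson 95% intervals that cover counting error only. The upper limits given here for a share of 0 are instead 3 cells of the total, which is lower than the exact bound.

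Epithelial cells were those with Epcam, an epithelial adhesion gene, at 1 FPKM or more: 32 wild-type and 81 mutant cells. The lowest such cell had Epcam at 53.1 FPKM, the next at 92.6 FPKM, and Epcam was listed at 0 in all 13 cells left out. Each of the 113 epithelial cells had at least 3 of 10 epithelial markers at 1 FPKM, and 2 wild-type and 2 mutant ones also had at least 3 of 10 mesenchymal markers. Sox9 itself averaged 3.26 ± 1.57 (SD, n = 32 cells) in wild-type and 3.33 ± 1.34 (SD, n = 81 cells) in mutant cells on the log2(FPKM + 1) scale, and a premature stop need not remove the transcript, so this checks no label. The files do not state read depth. FPKM values summed to a median of 494745 per wild-type and 455389 per mutant epithelial cell, but to over 1000000 in 1 wild-type cell (16361089) and 4 mutant cells (up to 3767696), so levels in those 5 cells are not on the scale of the others. Of the members' highest values by genotype, only that of Fgfr1 in mutant cells came from such a cell. The number of genes listed above 0 ran from 2189 to 6493 (median 5244) in wild-type and from 2035 to 9358 (median 4453) in mutant cells. Genotype also went with 2 other features of the cells. Of the epithelial cells, 31 of 32 wild-type but only 4 of 81 mutant ones had a Y-linked gene, and all mutant cells but only 1 wild-type epithelial cell had titles that begin with P9, a prefix the labels do not define. Genotype, sex-linked expression and title prefix cannot be told apart in these cells.

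A further split used the retinaldehyde dehydrogenases Aldh1a1 and Aldh1a3. A cell was called dominant for 1 of them when it had that gene at 1 FPKM or more and at least 1 log2 unit above the other. There were 14 wild-type and 40 mutant Aldh1a1-dominant cells, and 15 wild-type and 35 mutant Aldh1a3-dominant cells. The other 9 epithelial cells were mixed (1 and 1) or had neither gene (2 wild-type, 5 mutant). The smallest margins inside the classes were 1.02 and 1.31 log2 units and the larger margin of the 2 mixed cells was 0.895, so the classes are ranges of measured values and not cell types. Differences between groups are given as differences of mean log2(FPKM + 1) less the median of that difference over compared genes, those that reach 1 FPKM in 50% or more of the cells of either group. This relative difference removes the shift of all compared genes, which by genotype was -0.46 over 3442 genes. A relative difference of 1 or more in size is called past the fold.

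Errfi1 lies on chromosome 4 (chr4:150853919-150868892 of mm10, plus strand, as the expression table gives it). The reference promoter set of RefSeq (GRCm38.p6, which is mm10) holds windows for 7 of the 10 members and gives Errfi1 a pair of starts. Both upstream windows of 250 bases are shown because Errfi1 is the member past the fold by genotype. The upstream window of the distal start ends before the locus in the table, and that of the proximal start lies within it; neither overlaps an Errfi1 exon. Spry2 is shown as the other member whose window held any of the letters searched. Searched on both strands were the CRE (TGACGTCA), AP-1 (TGANTCA), STAT (TTCNNNGAA) and ETS (CCGGAAGT) motifs and a pair of SOX hexamers (ACAATG and ACAAAG). Capitals mark a match. Sequences run 5′ to 3′ on the strand of the gene.

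Errfi1 distal start, chr4:150853546-150853795, plus strand: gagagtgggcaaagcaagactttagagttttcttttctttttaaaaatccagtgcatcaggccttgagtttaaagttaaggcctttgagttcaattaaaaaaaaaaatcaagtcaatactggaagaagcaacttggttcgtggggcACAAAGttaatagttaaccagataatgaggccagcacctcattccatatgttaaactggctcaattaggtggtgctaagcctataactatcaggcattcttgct

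Errfi1 proximal start, chr4:150854820-150855069, plus strand: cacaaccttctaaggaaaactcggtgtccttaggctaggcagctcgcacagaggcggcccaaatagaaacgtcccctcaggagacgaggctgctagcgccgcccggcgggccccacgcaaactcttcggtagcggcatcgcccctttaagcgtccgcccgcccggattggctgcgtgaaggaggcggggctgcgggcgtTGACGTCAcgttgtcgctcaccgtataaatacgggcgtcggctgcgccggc

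Spry2, chr14:105896820-105897069, minus strand: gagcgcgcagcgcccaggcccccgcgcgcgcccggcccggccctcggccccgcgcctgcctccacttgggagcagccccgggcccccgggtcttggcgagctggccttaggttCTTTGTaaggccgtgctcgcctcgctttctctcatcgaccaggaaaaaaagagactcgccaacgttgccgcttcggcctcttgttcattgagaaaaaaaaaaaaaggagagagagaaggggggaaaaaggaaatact

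The distal Errfi1 window had a G and C content of 38% and 1 ACAAAG. The proximal window had 64.8% and 1 CRE. Spry2's window had 62.4% and 1 ACAAAG, read on the opposite strand. Among 32851 promoter windows with a median G and C content of 52.4%, 1.55% held the CRE, 6.75% AP-1, 7.02% STAT, 2.88% ETS, 10.7% ACAATG and 16.5% ACAAAG. None of these letters was in the upstream windows of Dusp6, Spry1, Egfr, Erbb2 or Fgfr2. A match describes letters in a window and is not evidence of binding.

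Errfi1 was detected, which here means at least 1 FPKM, in 18 of 32 wild-type epithelial cells (56.25%, interval 37.7% to 73.6%) and in 71 of 81 mutant ones (87.7%, interval 78.5% to 93.9%). In wild-type cells it ran from 0 to 119.3 FPKM with a median of 17.97 FPKM, and in mutant cells from 0 to 687.8 FPKM with a median of 73.1 FPKM. The groups overlapped at the low end, since 13 wild-type and 10 mutant cells were at 0, but 35 mutant cells and only 2 wild-type cells reached 100 FPKM. Among cells in which it was detected, the median was 32.8 FPKM in wild-type and 98.99 FPKM in mutant cells, so that both the share of positive cells and the level within them were higher in the mutant group. Its mean level was 2.89 ± 2.74 (SD, n = 32 cells) and 5.80 ± 2.65 (SD, n = 81 cells) on the log2(FPKM + 1) scale. The relative difference was 3.38, and a mutant cell had the higher value in 78.8% of all pairs of 1 wild-type and 1 mutant cell, with ties split evenly. Errfi1 ranked 3 from the top among the 3442 compared genes, of which 6.3% were higher and 7.35% lower by the fold. It stayed past the fold when each cell was rescaled to the same FPKM sum and when cells were scaled by median ratios. The lowest detected wild-type value of Errfi1, 2.67 FPKM, came from the cell whose FPKM values summed to 16361089.

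**Figure D1:**
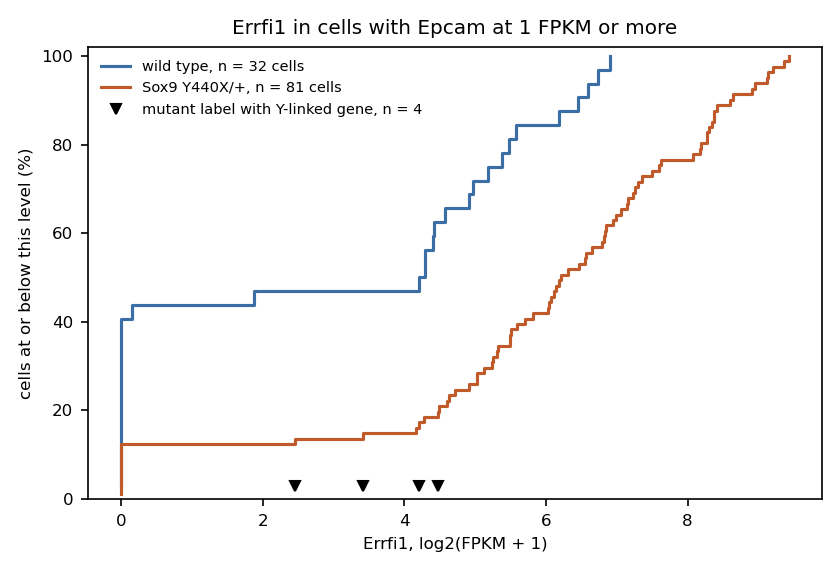
Cumulative share of epithelial cells (%) at or below each Errfi1 level, in log2(FPKM + 1), for 32 wild-type and 81 mutant cells; triangles mark 4 mutant cells in which a Y-linked gene was found. The mutant curve lies to the right throughout, and the 4 marked cells sit below the mutant median of 73.1 FPKM.

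The same difference was present in both dominance classes. Among Aldh1a1-dominant cells, 9 of the 14 wild-type and 36 of the 40 mutant ones had Errfi1, with medians of 19.4 FPKM and 66.2 FPKM and a relative difference of 3.04 (rank 10 of 4281 compared genes). Among Aldh1a3-dominant cells, 8 of the 15 wild-type and 29 of the 35 mutant ones had it, with medians of 2.67 FPKM and 87.8 FPKM and a relative difference of 3.54 (rank 4 of 3364 compared genes). That wild-type median is the value of the cell whose FPKM values summed to 16361089, so it is not on the scale of the others. The same limit holds for counting that cell among the 8. Between the classes the relative difference of Errfi1, Aldh1a3 minus Aldh1a1, was -0.29 for the wild type and 0.19 for the mutant. Over 14 alternatives the first ran from -1.47, past the fold, in cells with 3000 to 5000 listed genes (3 and 8 cells) to 0.29 without cells above 6000 listed genes, and the second from -0.15 to 0.28. The 5 mutant cells with neither Aldh1a gene had 36.7, 50.99, 269.9, 330.5 and 687.8 FPKM, while both wild-type cells of that kind were at 0. Of those 5 mutant cells, 3 lay above every wild-type cell.

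A few cells depart from the pairing of genotype with sex-linked expression and title prefix. The 4 mutant cells with a Y-linked gene had Errfi1 at 4.49, 9.67, 17.5 and 21.3 FPKM. All 4 were positive and all lay below the mutant median, within the range of the wild-type cells. These cells were unusual in other ways too. Those at 4.49 and 9.67 FPKM had the most listed genes of all epithelial cells, 9358 and 8246. The cell at 21.3 FPKM was the mixed mutant cell. Those at 9.67 and 21.3 FPKM had 3 or more of the mitochondria-rich markers described below. The single wild-type epithelial cell with the P9 prefix had 46.7 FPKM, above the wild-type median and below the mutant median. Without the 4 cells the relative difference was 3.52, and without the P9 wild-type cell it was 3.48. The part of sex or of the title prefix in the Errfi1 difference was not tested.

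**Figure D2:**
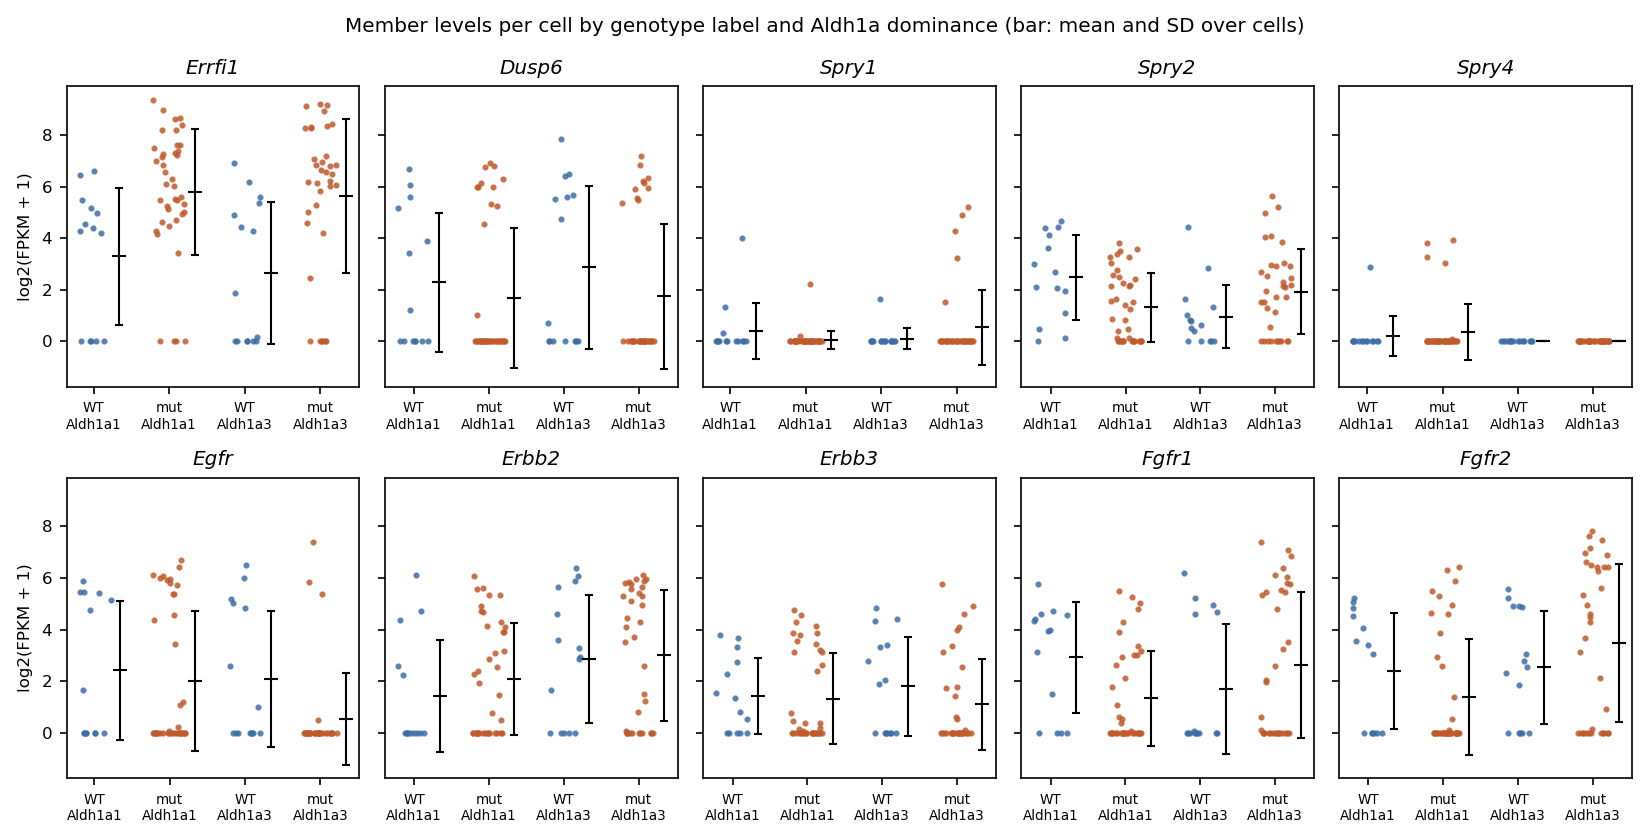
Level of each of the 10 members in every Aldh1a1-dominant and Aldh1a3-dominant cell, in log2(FPKM + 1), for wild-type (WT; 14 and 15 cells) and Sox9 Y440X/+ (mut; 40 and 35 cells) cells; bars are the mean and SD over cells. Errfi1 is the one panel in which mutant cells of both classes stand well above the wild type, while Spry1 and Spry4 are at 0 in most cells.

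None of the other feedback genes was past the fold by genotype over all epithelial cells. Dusp6 was detected in 14 of the 32 wild-type cells (43.75%, interval 26.4% to 62.3%) and 24 of the 81 mutant ones (29.6%, interval 19.99% to 40.8%), ranging up to 225.6 FPKM and 143.6 FPKM. Its relative difference by genotype was -0.17, and 0.03 without the P9 wild-type cell, which held the highest wild-type value. Where detected it was abundant in both groups, with medians of 47.4 FPKM and 62.05 FPKM, so that most cells were either near 0 or high.

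Spry2 was detected in nearly equal shares, 56.25% of wild-type cells and 58.02% of mutant ones, at lower levels: medians of 1.33 FPKM and 1.89 FPKM and highest values of 24.4 FPKM and 48.5 FPKM. Its relative difference over all epithelial cells was 0.35. Spry1 was found in 4 of the 32 wild-type cells (12.5%) and 6 of the 81 mutant ones (7.41%), and its relative difference was 0.32. Spry4 was found in 1 wild-type cell (3.13%) and 5 mutant ones (6.17%), and its relative difference was 0.63. Spry1 and Spry4 were under the detection filter, and with most cells at 0 their relative differences mainly restate the shift of all compared genes.

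Among the EGF receptor family, Erbb2, the co-receptor that has no known ligand of its own, was detected in 50% of the wild-type cells and 55.6% of the mutant ones, and its relative difference was 0.76. Erbb3, the neuregulin receptor that signals through partners, was found in 50% and 32.1% of them, at a relative difference of 0.03. Egfr, the receptor that Errfi1's product is best known to inhibit, was found in 13 of the 32 wild-type cells (40.6%, interval 23.7% to 59.4%) and 20 of the 81 mutant ones (24.7%, interval 15.8% to 35.5%), at a relative difference of -0.31. Fgfr1 was found in 50% and 44.4% of cells and Fgfr2 in 62.5% and 45.7%, with relative differences of 0.23 and 0.35. For each of the 5 receptors the intervals overlapped between the genotypes.

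Of the 10 members, 6 were compared by genotype, and Errfi1 alone was past the fold, where 6.3% of compared genes were higher and 7.35% lower. The median over all 10 was 0.33, against 0 over compared genes by construction, and the other members lay between -0.31 and 0.76. Erbb3, Fgfr1 and Fgfr2 were compared only because at least 50% of wild-type cells had them. Dusp6, Spry1, Spry4 and Egfr fell under the filter in both groups.

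On the FPKM scale, which is per transcript length, Errfi1 had the highest mean log2 level of the 10 members in both genotypes. In wild-type cells its 2.89 stood beside 2.55 ± 2.20 (SD, n = 32 cells) for Fgfr2 and 2.35 ± 2.86 (SD, n = 32 cells) for Dusp6, differences well inside the spread over cells. In mutant cells the next members were Erbb2 at 2.45 ± 2.40 (SD, n = 81 cells) and Fgfr2 at 2.43 ± 2.86 (SD, n = 81 cells), against 5.80 for Errfi1. From Fgfr2 down to Erbb3 in wild-type cells, and from Erbb2 down to Erbb3 in mutant cells, neighbours in the order differed by less than 1 SD. Spry1 and Spry4 were lowest in both, in that order.

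**Figure D3:**
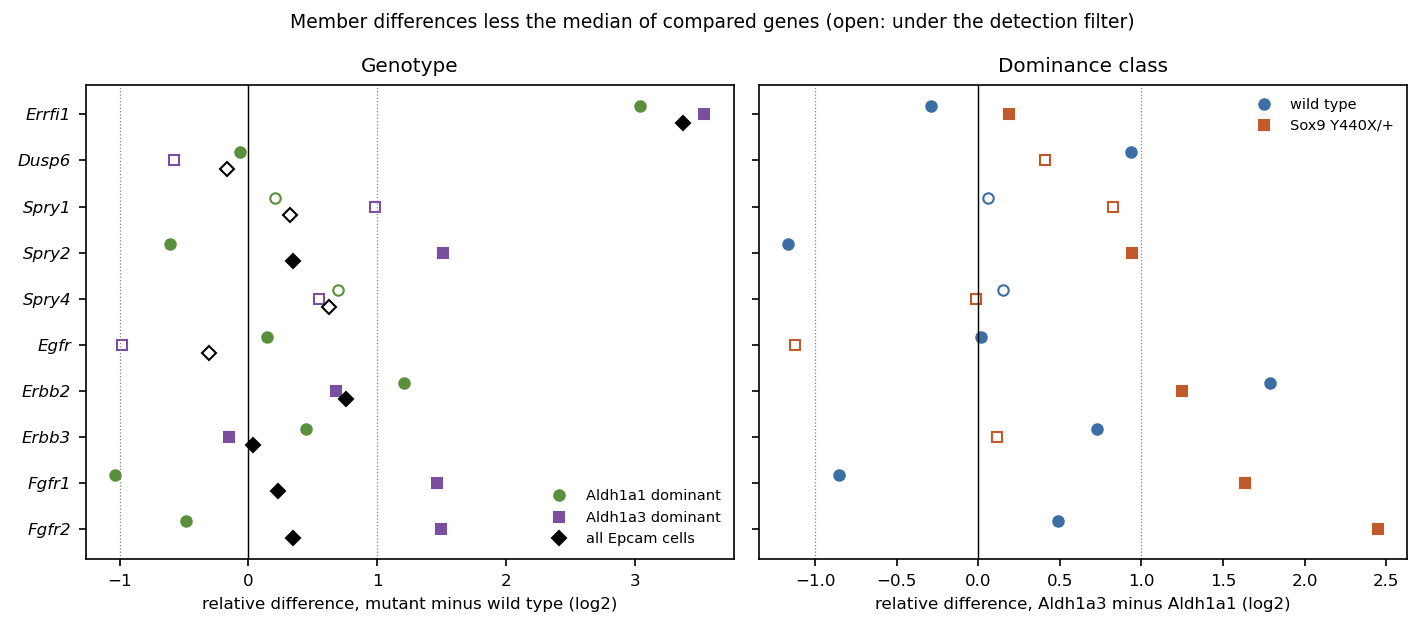
Relative difference of each member (log2 units, less the median of compared genes) by genotype, left, and between dominance classes, right; open symbols are members under the detection filter and dotted lines mark the fold of 1. Errfi1 lies above 3 in all 3 genotype comparisons and near 0 between classes, while Fgfr1 lies on opposite sides of 0 by genotype in the 2 classes.

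Within the dominance classes, Spry2, Fgfr1 and Fgfr2 had relative differences by genotype of opposite sign; the difference between the classes was not tested. So had Egfr, at 0.15 in Aldh1a1-dominant and -0.98 in Aldh1a3-dominant cells, where it was under the filter, and Erbb3, at 0.45 and -0.15. The share of all compared genes with opposite signs in the 2 classes was not counted. In Aldh1a3-dominant cells, Spry2 was detected in 5 of the 15 wild-type cells (33.3%, interval 11.8% to 61.6%) and 24 of the 35 mutant ones (68.6%, interval 50.7% to 83.1%). In Aldh1a1-dominant cells the order was the other way, 11 of 14 (78.6%, interval 49.2% to 95.3%) and 20 of 40 (50%, interval 33.8% to 66.2%). Its relative difference by genotype was 1.51 in Aldh1a3-dominant and -0.61 in Aldh1a1-dominant cells, and the intervals overlapped in both classes.

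Fgfr1, one of the FGF receptors of epithelium and mesenchyme, had the larger contrast. Among Aldh1a1-dominant cells it was detected in 10 of 14 wild-type cells, with a median of 14.6 FPKM and a highest value of 53.1 FPKM, and in 15 of 40 mutant cells, with a median of 0 and a highest value of 44.3 FPKM. Among Aldh1a3-dominant cells it was detected in 5 of 15 wild-type cells, with a median of 0 and a highest value of 71.6 FPKM, and in 18 of 35 mutant cells, with a median of 2.93 FPKM and a highest value of 169.5 FPKM. The relative differences by genotype were -1.04 and 1.47. The first was -0.97 without the 4 mutant cells with a Y-linked gene and -0.81 without cells that had 3 or more mitochondria-rich markers, both short of the fold, whereas the second was 1.501 and 1.53.

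Fgfr2 had relative differences by genotype of -0.48 in Aldh1a1-dominant and 1.49 in Aldh1a3-dominant cells; the first changed sign in 2 of 14 alternatives, with a highest value of 0.66. In mutant cells it was found in 12 of 40 Aldh1a1-dominant (30%, interval 16.6% to 46.5%) and 21 of 35 Aldh1a3-dominant cells (60%, interval 42.1% to 76.1%), with highest values of 84.4 FPKM and 227.4 FPKM. In wild-type cells it was found in 8 of 14 and 10 of 15. Between classes its relative difference was 2.45 in mutant cells, rank 31 of 3187 compared genes, and 0.49 in wild-type cells. The Fgfr2 row of the table spans chr7:130162451-133123350 on the minus strand and overlaps 30 other protein-coding genes. Whether counting used strand is not given in the sources used here, so its values are uncertain.

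Erbb2 was past the fold between classes in both genotypes, with higher levels in Aldh1a3-dominant cells. It was detected in 5 of 14 Aldh1a1-dominant and 10 of 15 Aldh1a3-dominant wild-type cells, and in 21 of 40 and 22 of 35 mutant cells, with between-class relative differences of 1.79 and 1.25. The intervals of those shares overlapped, and the values of Erbb2 may include reads of Mien1, which its row overlaps. Egfr was found in a larger share of Aldh1a1-dominant cells in the mutant group: in 16 of 40 (40%, interval 24.9% to 56.7%) and in 3 of 35 Aldh1a3-dominant cells (8.57%, interval 1.80% to 23.1%). In wild-type cells the shares were 7 of 14 and 6 of 15. Its between-class relative difference was -1.13 for mutant cells, where it was under the filter, and 0.02 for wild-type cells; the difference between the genotypes was not tested. The Egfr row overlaps Egfros and the Errfi1 row 1700045H11Rik, both non-coding, and reads of such partners cannot be told apart without strand.

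Counting past the fold, by genotype in Aldh1a1-dominant cells 8 members were compared and 2 were higher (Errfi1 and Erbb2) and 1 lower (Fgfr1), where 12.1% of compared genes were higher and 9.34% lower. In Aldh1a3-dominant cells 6 were compared and 4 were higher (Errfi1, Spry2, Fgfr1 and Fgfr2), where 11.7% of compared genes were higher; 0 were lower, as 530 of 3364 compared genes were. Between classes in wild-type cells 8 were compared, 1 was higher in Aldh1a3-dominant cells (Erbb2) and 1 lower (Spry2, -1.16), against 17.7% and 16.7% of compared genes. In mutant cells 5 were compared, 3 were higher (Erbb2, Fgfr1 and Fgfr2), against 10.4% of compared genes, and 0 were lower, as 461 of 3187 were. Spry2 stood at 0.94 in mutant cells, short of the fold and of opposite sign to the wild type. Several of these members were compared only through the group in which they were higher, so the filter favours their direction. By genotype these were Fgfr1 (wild type 71.4%, mutant 37.5%) and Erbb2 (35.7% and 52.5%) in Aldh1a1-dominant cells, and Spry2 and Fgfr1 (33.3% and 51.4%) in Aldh1a3-dominant cells. Between classes they were Erbb2 and Spry2 in wild-type cells and Fgfr1 and Fgfr2 in mutant cells. The genotype counts come from the contrast that chose the members. The 4 within-genotype class groups also enter both kinds of comparison, so the counts are not separate evidence.

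In a split of cells chosen after the values were seen, every epithelial cell with Spry4 carried markers of mitochondria-rich cells. These are the acid and base transporting cells of the sac epithelium, which carry Foxi1, their defining transcription factor gene, and proton pump genes. At least 3 of 10 such markers were found in 3 wild-type and 9 mutant epithelial cells, and all 12 had Foxi1. Spry4 was detected in 6 of these 12 cells, at 6.28 FPKM in the wild-type cell and at 7.23, 8.59, 13.1, 14.4 and 86.7 FPKM in the mutant ones. None of the other 101 epithelial cells had it (0 of 101, an upper limit of 2.97%). Those cells listed fewer genes, a median of 4624 against 5531, but ran up to 9358 listed genes against 8246. In mutant cells alone the shares were 5 of 9 (55.6%, interval 21.2% to 86.3%) and 0 of 72 (allowing up to 4.17%). Spry4 was singled out from the 10 members, and the share of all genes that separate these cells likewise was not counted.

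The other members had other shares there. In mutant cells with 3 or more of these markers, Fgfr1 was found in 1 of 9 and Spry2 in 2 of 9, compared with 35 of 72 and 45 of 72 of the other epithelial cells. Errfi1 was found in 7 of 9 and 64 of 72, with medians of 29.2 FPKM and 90.5 FPKM. Spry1 was found in 0 of 9 and 6 of 72. In wild-type cells, Fgfr1 was found in 2 of the 3 marker-rich cells and 14 of the other 29, and Spry2 in 1 of 3 and 17 of 29. Errfi1 was found there in 2 of 3 and 16 of 29, with medians of 22.7 FPKM and 17.4 FPKM, the opposite order to the mutant cells. The share of all genes that differ likewise was not counted for these members either.

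The cells without Epcam had another make-up of members. Of the 12 mutant cells, 9 had at least 3 of 10 mesenchymal markers and 9 had the collagen gene Col1a1. Dusp6 was detected in 9 of 12 (75%, interval 42.8% to 94.5%) and Spry1 in 7 of 12 (58.3%, interval 27.7% to 84.8%), compared with 29.6% and 7.41% of mutant epithelial cells. This split was chosen after the values were seen. The share of all genes that differ likewise between these kinds of cell was not counted. Errfi1 was detected in 6 of 12, with a highest value of 69.2 FPKM, below the mutant epithelial median. Spry4 was detected in 2 of 12, and Erbb3 in 0 of 12, an upper limit of 25%. The one wild-type cell without Epcam had 3 or more mesenchymal markers, Dusp6 at 52.4 FPKM, Spry1 at 33.8 FPKM and Errfi1 at 0.

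**Figure D4:**
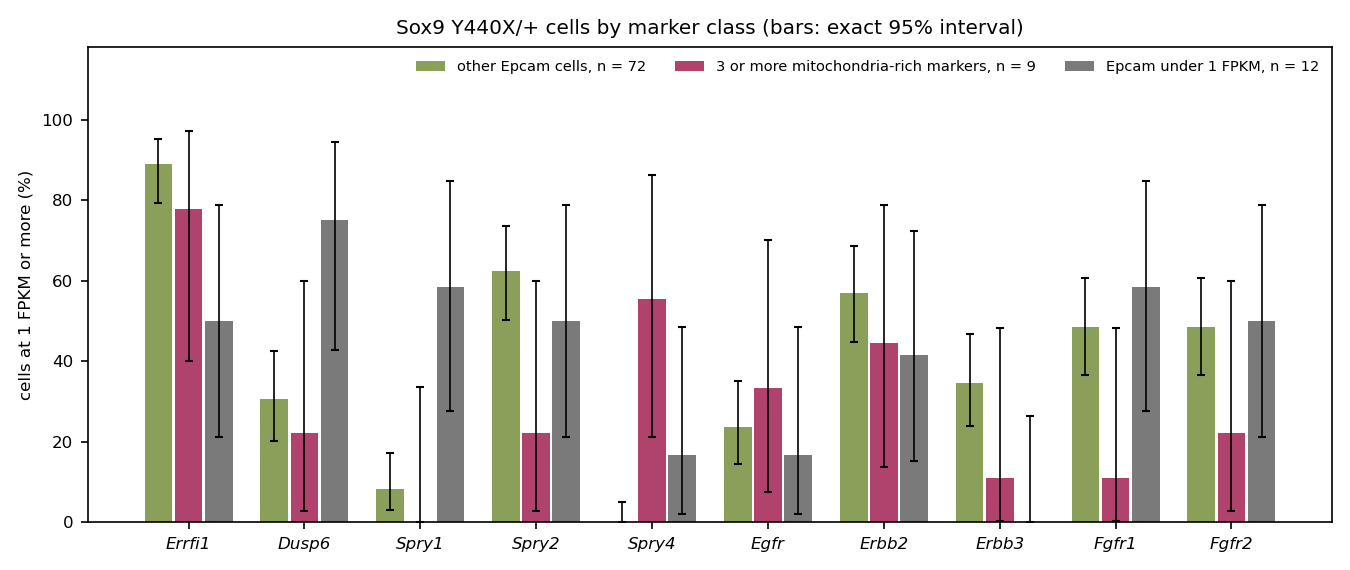
Share of Sox9 Y440X/+ cells with each member at 1 FPKM or more (%), for 72 epithelial cells with under 3 mitochondria-rich markers, 9 epithelial cells with 3 or more and 12 cells with Epcam under 1 FPKM; black bars are exact 95% intervals for counting error. Spry4 was found in 5 of 9 marker-rich cells and in 0 of 72 other epithelial cells, and Dusp6 and Spry1 were most frequent in the cells without Epcam.

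Whether Errfi1 moved with the receptors or with the other feedback genes was described by Spearman rho over cells within a genotype. Cells of 1 genotype share their source and zeros are frequent, so these values carry no p. In wild-type cells the median rho of Errfi1 was -0.04 with the 5 receptors and 0.10 with the 4 other feedback genes, against a median of 0.01 over 3441 other compared genes. In mutant cells it was 0.07 with the receptors and -0.19 with the feedback genes, against -0.03. The order of the 2 sets was opposite in the 2 genotypes, but the feedback medians rest on sparse genes. In mutant cells the median lies between Spry1 (-0.18, detected in 6 cells) and Spry4 (-0.20, detected in 5 cells). In wild-type cells it lies between Spry2 (0.11) and Spry4 (0.09, detected in 1 cell).

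Single members varied too. Between the 5th and 95th percentile, other single compared genes had a rho with Errfi1 of -0.29 to 0.30 in wild-type and -0.21 to 0.16 in mutant cells. The rho of Dusp6 with Errfi1 was 0.18 among wild-type and -0.26 among mutant cells. That of Erbb2 was -0.45 and 0.18. The differences of rho between the genotypes were not tested. In mutant cells Dusp6 was thus below the 5th percentile of other single genes, and Erbb2 and Erbb3, at 0.18 each, were just above the 95th. In wild-type cells Erbb2 was below the 5th percentile. Of the 45 pairs among the 10 members, only Spry1 with Spry2 reached a rho of 0.2 in both genotypes, at 0.35 and 0.32, and Spry1 was detected in 4 and 6 cells. All those Spry1 cells also had Spry2. The share of pairs that reach this rho among all compared genes was not counted.

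**Figure D5:**
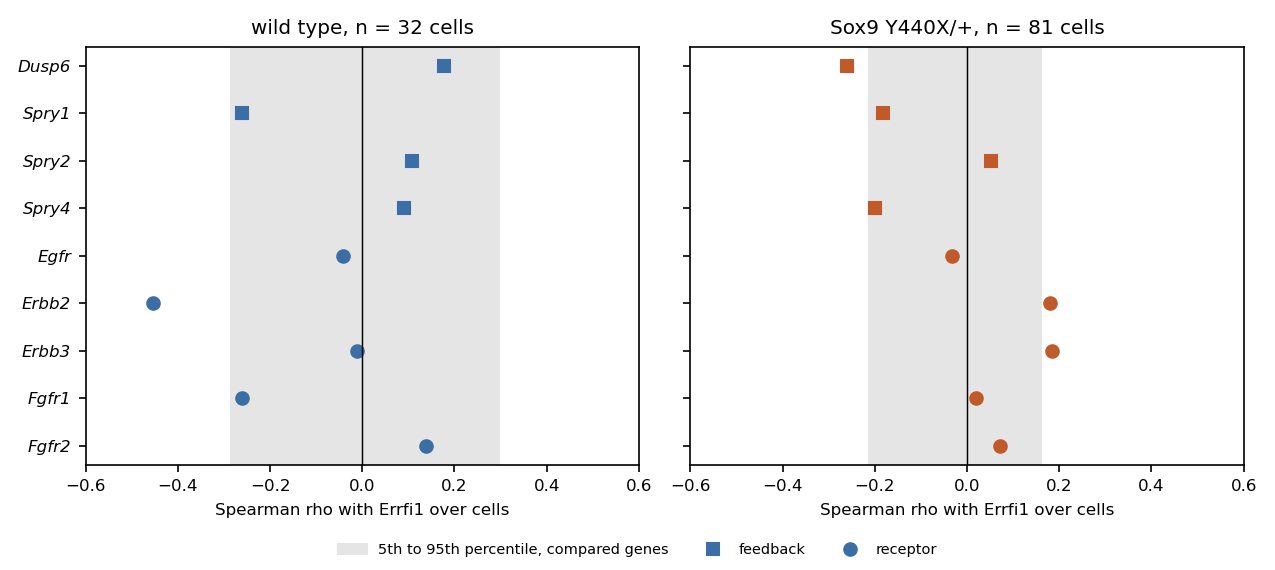
Spearman rho of each other member with Errfi1 over 32 wild-type cells, left, and 81 mutant cells, right; squares are feedback genes, circles receptors, and the grey band the 5th to 95th percentile of other single compared genes. Dusp6 moves from 0.18 to -0.26 and Erbb2 from -0.45 to 0.18 between the genotypes.

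Detection of the receptors was also set beside that of Errfi1. At least 1 of Egfr, Erbb2 and Erbb3 was detected in 15 of 18 wild-type cells with Errfi1 and in 13 of 14 without it. In mutant cells this held for 54 of 71 cells with Errfi1 (76.1%, interval 64.5% to 85.4%) and 6 of 10 without (60%, interval 26.2% to 87.8%). At least 1 of Dusp6, Spry1, Spry2 and Spry4 was detected in 15 of 18 wild-type cells with Errfi1 and 9 of 14 without it, and in 57 of 71 mutant cells with it (80.3%, interval 69.1% to 88.8%) and 6 of 10 without (60%, interval 26.2% to 87.8%). In each of these pairs the intervals overlapped. In 17 mutant cells Errfi1 was detected with none of Egfr, Erbb2 and Erbb3 detected. A median of 5 members was detected per wild-type cell and 4 per mutant cell, and 2 wild-type and 9 mutant cells had none of the 5 receptors.

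The compared genes with the highest rho with Errfi1 in mutant cells were Eif4a2, a translation initiation factor gene (0.35), Ppm1j, a phosphatase gene (0.34), Msx1, a homeobox gene (0.34), Map2k5, the kinase gene upstream of ERK5 (0.33), and Glb1, the lysosomal beta-galactosidase gene (0.30). In wild-type cells their values were 0.03, 0.17, 0.03, 0.10 and -0.11. None of the 5 was past the higher fold by genotype, and Glb1 was lower by 1.07.

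The rest of the pathway was sparse. Of 11 EGF family ligand genes only Hbegf, which encodes heparin-binding EGF, was compared, in 71.9% of the wild-type and 66.7% of the mutant cells, at a relative difference of 0.36. None of the 22 FGF ligand genes or 6 other receptor genes was compared. Of 18 adaptor and cascade genes 7 were compared, 0 were past the fold in either direction (6.3% of compared genes were higher and 7.35% lower), and the median was 0.39. Map2k1, which encodes the ERK kinase MEK1, had a relative difference of -0.68 and Araf, a RAF kinase gene, one of 0.71.

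Of the 19 other feedback genes measured, only 2 were compared, Dusp5, a nuclear ERK phosphatase gene, at -0.61 and Flrt3, which encodes an FGF receptor partner, at 0.95. By class, Dusp5 stood at -2.03 in Aldh1a1-dominant and at 1.13 in Aldh1a3-dominant cells. Dusp4, another nuclear phosphatase gene of that family, was under the filter and is named because of its values. It was at 1 FPKM in none of the wild-type cells (0 of 32, an upper limit of 9.38%) and in 14 of the 81 mutant ones (17.3%, interval 9.78% to 27.3%). Btc, the EGF receptor ligand gene betacellulin, singled out in the same way, was detected in 8 of the 32 wild-type cells (25%, interval 11.5% to 43.4%) and 3 of the 81 mutant ones (3.70%, interval 0.77% to 10.4%).

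Among 19 genes that ERK signalling is known to induce or that mark its output, 9 were compared, 1 was higher and 3 were lower, with a median of -0.17. Of all compared genes, 6.3% were higher and 7.35% lower. Ier3, an immediate early survival gene, was higher by 1.26. The AP-1 subunit genes Fos and Fosb and the immediate early gene Ier2, in the order Fos, Ier2 and Fosb, had relative differences of -1.64, -1.34 and -1.004. Fos was detected in 100% of the wild-type and 93.8% of the mutant cells and averaged 9.30 ± 1.34 (SD, n = 32 cells) in the first and 7.20 ± 2.40 (SD, n = 81 cells) in the second. Etv4 and Etv5, standard readouts of FGF signalling, reached 1 FPKM in no cell of either genotype (0 of 32 and 0 of 81, upper limits of 9.38% and 3.70%). Of 10 stress and immediate early genes, which cell dissociation is known to induce, 8 were compared, 0 were higher and 1 was lower (Zfp36, an mRNA decay factor gene, at -2.05), with a median of 0.21, beside the same 6.3% and 7.35% of compared genes. This count is over all epithelial cells. Of this list, those past the fold in either class were Atf3, Btg2, Hspb1 and Zfp36. They stood at 2.82, 1.39, 1.29 and -1.60 in Aldh1a3-dominant cells and at -1.003, -0.20, 0.14 and -2.37 in Aldh1a1-dominant cells. The shares of all compared genes past the fold by class are those given above for the members. Immediate early genes of the ERK list, among them Fos, Fosb, Ier2 and Ier3, were not in the stress count. The lists therefore do not tell ERK output from a response to dissociation, which was not tested.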

How the data were processed

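Smart-seq2 libraries of 126 single cells were made from the endolymphatic sac, per the labels' protocols. Expression came as FPKM (fragments per kilobase and per unit of mapped fragments), which the authors deposited as 48555 rows over the cells. Cufflinks, HTSeq, HISAT2 and SAMtools 0.1.18 are named, with the build mm10 but no role, per the submitters' processing notes. The annotation, filters and strand setting were not given in the sources used here. Rows of 49 identifiers with several rows were summed. No reads could be recovered from the FPKM values, so depth is unknown and the number of listed genes stands in for it.

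Values were analysed as log2(FPKM + 1), a scale that understates changes of low genes. Detection meant 1 FPKM. Groups came from the genotype labels, Epcam and the Aldh1a classes. Since no animal is named, no test, p-value or standard error was computed: relative differences, shares with exact Clopper-Pearson 95% intervals and Spearman rho were described with Python 3.11.15, numpy 2.4.6, pandas 2.3.3 and scipy 1.17.1. The relative-difference code was tested on simulated data. A share of 0 allows up to 3 cells of the total.

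The members and the lists of pathway and marker genes were chosen with earlier results of these data known. Named genes were all members, the 5 compared genes with the highest rho with Errfi1 in mutant cells (leaving out members, predicted genes, pseudogenes, haemoglobin, mitochondrial and sex-linked genes), and up to 3 compared genes at either end of each pathway list. Dusp4, Btc, Etv4, Etv5 and Btg2 were named after their values were seen. The splits by mitochondria-rich markers and Epcam, in which Spry4, Dusp6 and Spry1 are described, were also chosen after that. Alternatives were other pseudocounts, scalings, filters, detection levels, class margins and cell subsets. The promoter letters were read from a RefSeq table of GRCm38.p6; protein sequences were not used here.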

Additional observations from a re-analysis of the deposited data

Results flagged for a closer look

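Fgfr1, an FGF receptor gene, stood on opposite sides of the compared genes in the Aldh1a classes: its relative genotype difference, mutant minus wild type, was -1.035 in Aldh1a1-dominant cells (14 wild-type and 40 mutant cells) and 1.467 in Aldh1a3-dominant cells (15 and 35 cells). It drew attention among the members because the direction differed between the classes. Fgfr1 was not alone in this. Of the pathway lists, Dusp5 stood at -2.03 in Aldh1a1-dominant and 1.13 in Aldh1a3-dominant cells, and Atf3 at -1.003 and 2.82. The other genes of those lists were not past the fold in opposite directions. The share of all compared genes that were was not counted, so the pattern cannot be read as particular to Fgfr1. In each class Fgfr1 was compared only through the genotype in which it was higher, the wild type in Aldh1a1-dominant cells (71.4% of cells, mutant 37.5%) and the mutant in Aldh1a3-dominant cells (51.4%, wild type 33.3%), so the detection filter favours both directions. The difference between the classes was not tested, because each genotype is 1 sample. Over 14 alternatives the first value ran from -1.69 to -0.39 and was past the fold in 9, and the second ran from 0.68 to 2.46 and was past it in 11.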

How the results depend on the processing

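Errfi1 kept its direction and stayed past the fold under all 14 alternatives in each genotype comparison: its relative difference ran from 2.02 to 4.66 over all epithelial cells, from 1.82 to 4.21 in Aldh1a1-dominant and from 2.14 to 4.86 in Aldh1a3-dominant cells. The number of members higher by genotype rose from 1 to 2 in 3 alternatives: with a pseudocount of 0.1 (Errfi1 and Erbb2), with log2 of the mean FPKM (Errfi1 and Fgfr2) and in cells with 3000 to 5000 listed genes (Errfi1 and Spry2, 12 wild-type and 53 mutant cells). The cause was not tested. The count of members lower by genotype was 0 in every alternative run. The share of all compared genes past the fold was not counted under the alternatives, so these counts cannot be read as particular to the members. The median rho of Errfi1 with the other feedback genes in mutant cells ran from -0.26 to -0.12, and with the receptors from 0.04 to 0.09, over 11 alternatives. In wild-type cells the ranges were 0.07 to 0.29 and -0.23 to -0.01. Most alternatives for comparisons that use dominance classes, and for rho the scaling by median ratios and the subset without mitochondria-rich markers, were chosen after seeing the data. In wild-type cells the Aldh1a3 minus Aldh1a1 difference of Spry2 was past the fold in 13 of 14 alternatives and that of Erbb2 in 13 of 14. In mutant cells Fgfr2 was past it in 14 of 14, Fgfr1 in 13 and Erbb2 in 10. Spry2, of opposite sign in mutant cells at 0.94, was past it in 4. Replicate numbers shared across genotypes are absent from the labels and no test was made, so no block was fitted. Unknown read depth limits the low members most: an undetected Spry1, Spry4 or Egfr in a cell is not shown to be absent.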
